A study of Homo sapiens with 12 samples.

Results

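The nuclear receptors that sense fatty acids, oxysterols and bile acids, together with the PGC1 coactivators that work with them, were followed in VCaP prostate cancer cells adapted to high or low testosterone (T). The 10 genes were taken by symbol: the fatty acid receptors PPARA, PPARD and PPARG, the oxysterol receptors NR1H2 and NR1H3 (LXRβ and LXRα), the bile acid receptor NR1H4 (FXR), their shared partner RXRA, the repressor NR0B2 (SHP), and the coactivators PPARGC1A and PPARGC1B. All 10 were among the 58381 genes counted, and 9 passed the filter on low counts that left 19162 genes for testing. NR0B2 was the exception, with 0 to 3 counted fragments in each library.

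VCaP is an androgen receptor-positive human prostate cancer cell line. The medium of all groups held charcoal-stripped serum. VCaP-T had been kept in it for months with 10 nM T, and VCaP-CT was grown out of VCaP-T over further months with 0.1 nM T. Poly(A) RNA was sequenced from 3 libraries in each of 4 groups. VCaP-CT (passage 73) was sampled after a rise to 10 nM T lasting 48 h (rechallenged VCaP-CT) or while still at its usual 0.1 nM T (maintained VCaP-CT). VCaP-T (passage 84) was sampled after a drop to 0.1 nM T lasting 48 h (depleted VCaP-T) or while still at its usual 10 nM T (maintained VCaP-T). Each line is a single line, and the line and the T concentration differ together when the 2 lines are compared in their own maintenance medium. At the same T concentration, the time spent at it differs with the line, 48 h against long-term culture. Passage differs with the line in every such comparison. No source used here says whether replicates were separate cultures. If they were not, the spread behind each p-value is technical.

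PPARs, LXRs and FXR sit on DNA as pairs with an RXR and switch on genes when their lipid ligand binds. PPARA and PPARD drive genes of fatty acid oxidation, PPARG those of fat storage, LXRs those of cholesterol export and fatty acid synthesis, and FXR those of bile acid handling in liver and gut. PGC1 proteins bind such receptors and ERRs and raise the output of mitochondrial genes, and SHP, itself induced by FXR in liver, shuts receptors down.

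Upstream sequences of the receptors PPARG and NR1H4 and of both PGC1 coactivators, the members the results turn on, are shown because pairs with RXR bind direct repeats of the hexamer AGGTCA, and the androgen receptor binds repeats related to AGAACA. They are the 250 bases before an annotated RefSeq start (GRCh38.p14, 5′ to 3′ on the gene's strand), read as the letters AGGTCA and AGAACA or their reverse complements TGACCT and TGTTCT, with matches in capitals and no overlap between them. Of 35116 RefSeq windows of that length, 12.1% held AGGTCA and 12.4% held AGAACA on either strand. The NR1H4 window lies at chr12:100503110-100503359 inside the counted gene and outside its exons. The PPARG window at chr3:12287118-12287367 is the most upstream of 6 listed for that gene and ends just before its counted start. From the most upstream on, the 6 held 2, 1, 1, 0, 0 and 0 matches to AGGTCA, and some of them overlap. The PPARGC1B window at chr5:149771690-149771939 lies within the counted gene, outside its exons. The PPARGC1A window at chr4:24472906-24473155, on the minus strand, is the more upstream of 2 listed and lies outside the counted gene, whose 5′ end is at 23904089. The other PPARGC1A window, at chr4:23881102-23881351 within the counted gene, held 0 matches and 4 CG pairs and is not shown.
NR1H4: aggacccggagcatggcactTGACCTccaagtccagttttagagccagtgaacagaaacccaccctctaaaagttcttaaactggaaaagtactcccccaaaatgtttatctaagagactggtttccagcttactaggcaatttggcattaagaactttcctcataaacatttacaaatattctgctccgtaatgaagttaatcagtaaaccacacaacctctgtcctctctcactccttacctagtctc
PPARG: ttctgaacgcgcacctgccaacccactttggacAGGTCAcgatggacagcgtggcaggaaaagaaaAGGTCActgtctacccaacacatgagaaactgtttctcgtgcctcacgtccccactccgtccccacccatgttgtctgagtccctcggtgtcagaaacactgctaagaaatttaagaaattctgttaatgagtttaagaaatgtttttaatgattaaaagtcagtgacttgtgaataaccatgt
PPARGC1B: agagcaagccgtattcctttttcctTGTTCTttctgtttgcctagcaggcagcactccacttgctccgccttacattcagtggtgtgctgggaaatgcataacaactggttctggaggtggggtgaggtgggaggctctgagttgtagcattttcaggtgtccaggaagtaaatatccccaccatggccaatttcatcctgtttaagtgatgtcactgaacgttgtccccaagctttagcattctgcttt
PPARGC1A: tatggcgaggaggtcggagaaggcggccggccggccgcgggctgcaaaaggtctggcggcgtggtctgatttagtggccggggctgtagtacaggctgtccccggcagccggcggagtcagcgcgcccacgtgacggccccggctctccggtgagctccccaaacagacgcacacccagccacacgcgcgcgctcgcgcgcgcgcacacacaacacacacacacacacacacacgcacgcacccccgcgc
NR1H4 had 1 TGACCT, PPARG had 2 AGGTCA, PPARGC1B had 1 TGTTCT and PPARGC1A had 0 matches, and the windows held 2, 8, 3 and 33 CG pairs in that order, against a median of 11 over all windows. A match of 6 letters is a description of the sequence only.

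The libraries held 30.2 to 40.8 M counted fragments. Replicate 2 of depleted VCaP-T stood apart: its lowest correlation with another library of its group was 0.9653 (log CPM), whereas the other groups had no pair below 0.9933. Its departure followed gene length in part, with a Spearman correlation of -0.329 between the log2 ratio and exon length over the 19162 genes tested. The median log2 ratio to the other replicates of its group was 0.262 for genes with up to 1000 exon bases and -0.624 for those above 10000. PPARA, PPARGC1B and PPARGC1A, all above that length, had log2 ratios of -1.105, -1.217 and -0.671 in that library. RXRA, also above that length, had -0.094. Values without it are given for members and for lists that it moved. All 8 luminal prostate markers were above 1 TPM (transcript abundance corrected for gene length and library size) in every group, with summed levels of 6675 to 7014 TPM in rechallenged VCaP-CT, 4585 to 4655 TPM in maintained VCaP-CT, 4066 to 4937 TPM in depleted VCaP-T and 7706 to 7781 TPM in maintained VCaP-T.

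**Figure D1:**
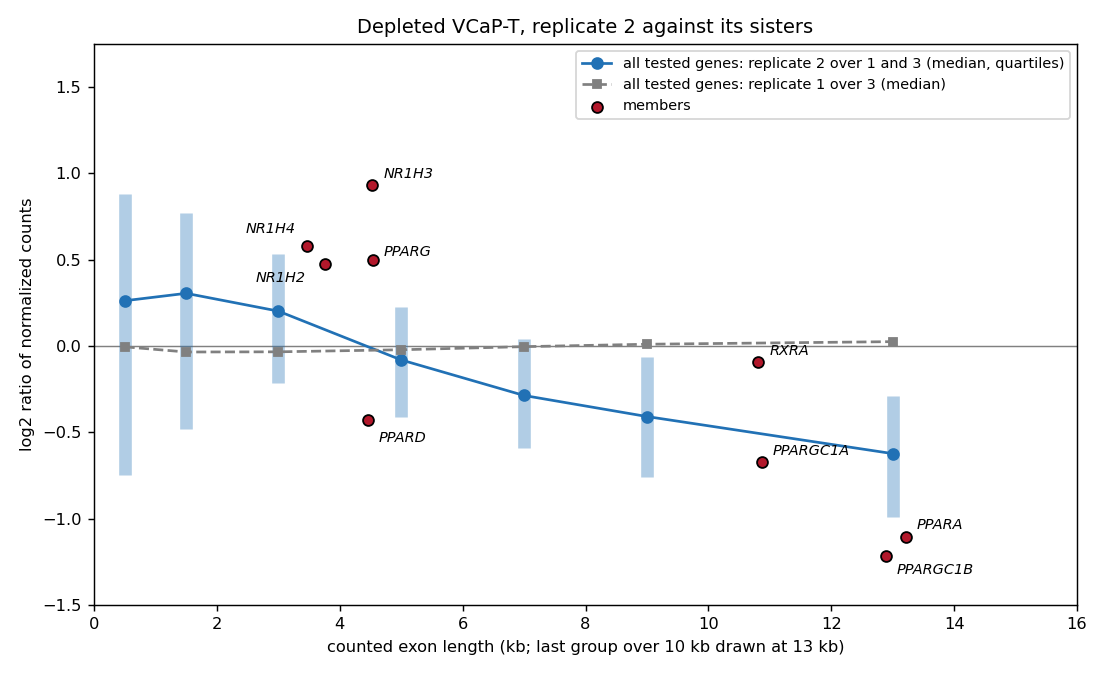
Median log2 ratio of replicate 2 of depleted VCaP-T to the other 2 replicates of its group, by exon length of the gene, drawn as a line with bars from the lower to the upper quartile. The regulators are red points, a dashed line gives replicate 1 over replicate 3, and the blue median was 0.262 for the shortest genes and -0.624 for those above 10000 exon bases, and the points of PPARA and PPARGC1B lie lowest among the regulators.

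PPARD, NR1H2 and RXRA were the most abundant members per length. RXRA had 20.4 TPM in rechallenged VCaP-CT, 22.2 TPM in maintained VCaP-CT, 16.5 TPM in depleted VCaP-T and 17.8 TPM in maintained VCaP-T. Among the LXRs, NR1H2 supplied 85.8% to 90.5% of the summed TPM in the 4 groups. Among the PPARs, PPARD supplied most in every group. The second PPAR differed by line: PPARA made up 23.9% and 21.5% of PPAR TPM in rechallenged and maintained VCaP-CT, whereas in depleted and maintained VCaP-T PPARG made up 27.2% and 16.9%. In rechallenged and maintained VCaP-CT, PPARG was 0.616% and 0.766% of the PPAR total. PPARGC1A made up 3.63% and 2.27% of the PGC1 total in rechallenged and maintained VCaP-CT, and 26.3% and 21.8% in depleted and maintained VCaP-T.

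**Figure D2:**
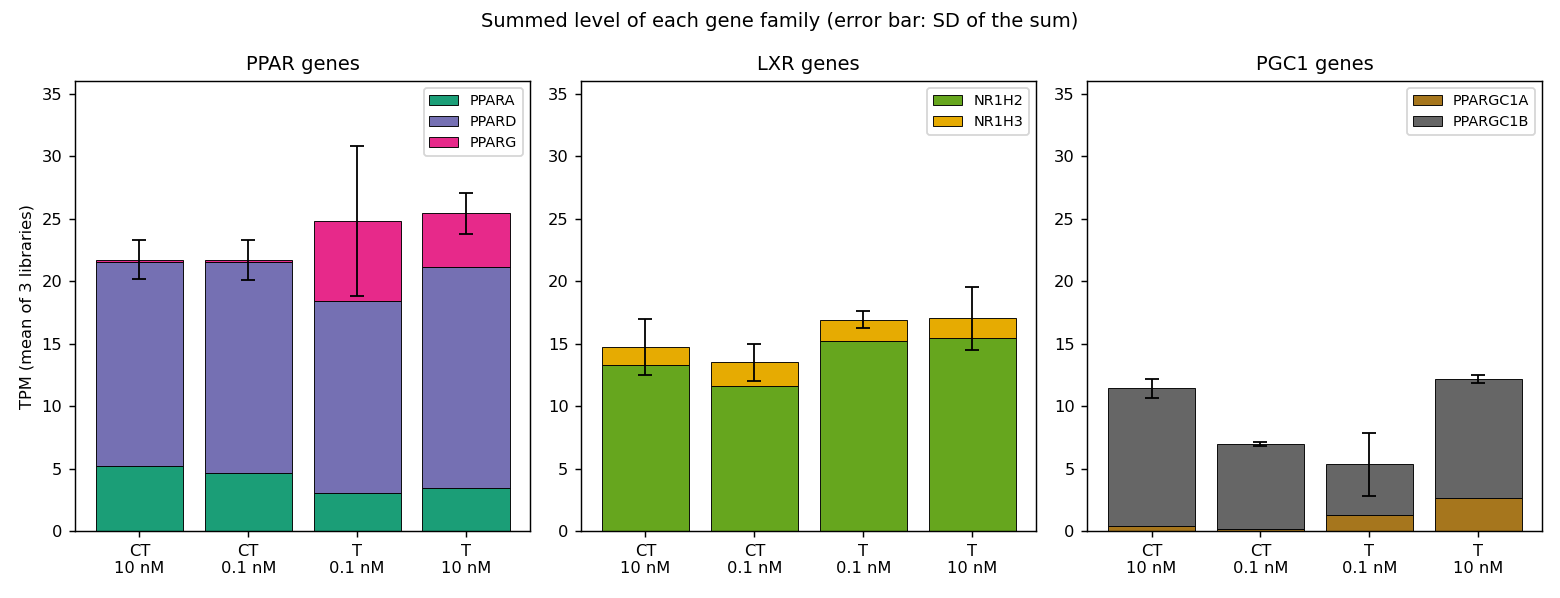
Mean TPM of the PPAR, LXR and PGC1 genes, stacked by family, in VCaP-CT (CT) and VCaP-T (T) at the T concentration under each bar, with the SD of the sum over 3 libraries. The PPAR sum was 21.7 TPM in both VCaP-CT groups, 24.8 TPM in depleted VCaP-T and 25.4 TPM in maintained VCaP-T, with a visible PPARG part in VCaP-T alone.

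The fits asked which regulators respond to T in each line and which differ between the lines. A gene passed the test at an adjusted p under 0.01 in edgeR's quasi-likelihood test, and was called when its log2 fold change also exceeded 1 in size and its group medians differed by over 13 normalized counts (counts scaled by TMM to a common library size). On depletion (depleted against maintained VCaP-T), 3 of 9 members passed, 1 higher and 2 lower, with 9.97% of all genes tested past the test (6.15% higher and 3.83% lower). On rechallenge (rechallenged against maintained VCaP-CT), 1 of 9 passed, and it was higher, with a background of 14.3% (7.07% higher and 7.19% lower). Between the lines in maintenance medium 4 of 9 passed, 1 higher and 3 lower in VCaP-CT (background 30.6%, with 14.8% higher and 15.7% lower). With both lines at 0.1 nM T, 3 of 9 passed, all lower (background 29.5%, with 16.4% lower). With both at 10 nM T, 3 of 9 passed, all lower (background 25.2%, with 13.2% lower). With 9 genes, each member moves these shares by a large step. The called members numbered 2 on depletion (background 3.14%), 1 on rechallenge (5.14%), and 3 in each comparison of the lines (12.7% in maintenance medium, 12.3% at 0.1 nM T and 10.2% at 10 nM T). For the difference in response (the log2 change with 10 nM T in VCaP-CT minus that in VCaP-T), 0 of 9 members passed edgeR's test or DESeq2's, 1 had an unadjusted p under 0.05, and 0.965% of all genes passed (0.564% with a log2 difference over 1 in size). The VCaP-T part of this difference is the 48 h depletion with its sign reversed, while the VCaP-CT part is a 48 h addition of T. The line and the direction of the change cannot be told apart in it. All comparisons share groups, so they are not independent of each other.

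Groups did not overlap for 4 of 9 members on depletion (38.0% of all genes), 4 on rechallenge (55.7%), 6 between the lines in maintenance medium (69.0%), 7 at 0.1 nM T (52.3%) and 5 at 10 nM T (61.7%). The median log2 fold change of all genes tested was 0.037 on depletion and -0.015 on rechallenge, and lay between -0.024 and 0.001 between the lines. The RNA is from bulk cultures, in which fewer cells expressing a gene and less of its RNA per cell cannot be told apart.

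**Figure D3:**
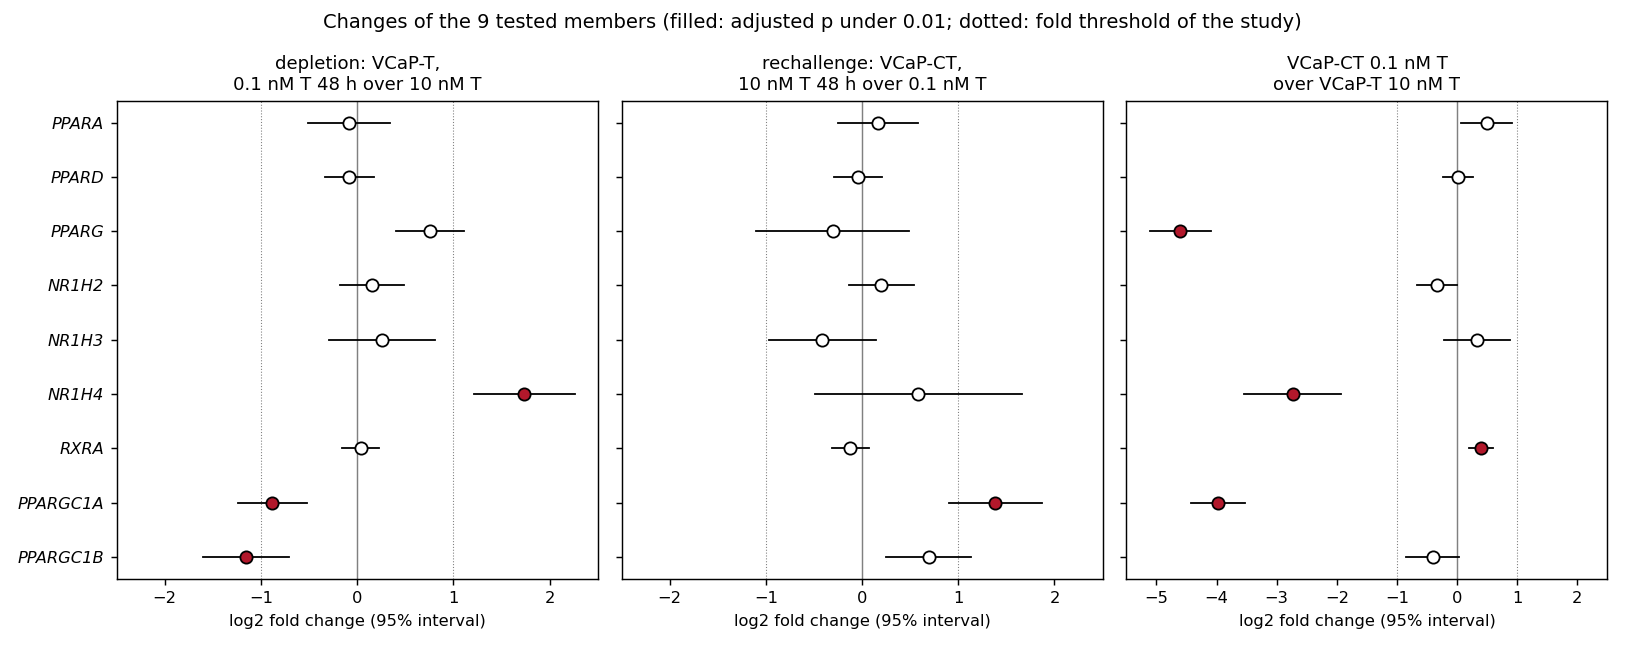
Log2 fold changes of the 9 members tested on depletion, on rechallenge and between the lines in maintenance medium, with 95% intervals and filled points where the adjusted p was under 0.01. PPARG, NR1H4 and PPARGC1A lie far below 0 between the lines, NR1H4 lies above 0 and the PGC1 genes below 0 on depletion, and PPARGC1A lies above 0 on rechallenge.

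Among the receptors, NR1H4 and PPARG had the widest range over the groups. NR1H4 (ENSG00000012504.13, chr12:100473708-100564413, plus strand, GRCh38) had 70.9, 101 and 63.9 normalized counts in depleted VCaP-T, against 27.6, 23.8 and 19.2 in maintained VCaP-T. All depleted libraries lay above all maintained ones. On depletion NR1H4 rose 3.33-fold, a log2 fold change of 1.73 with an SE of 0.266 (adjusted p = 0.00087, edgeR). Its mean was 1.65 TPM in depleted VCaP-T and 0.558 TPM in maintained VCaP-T, so it stayed a low-abundance transcript. It still passed with any 1 library of either group left out, and without depleted replicate 2 its log2 fold change was 1.53 (adjusted p = 5.05e-05). With only the 6 libraries of the comparison in the fit, the adjusted p was 0.0163 at a log2 fold change of 1.71.

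In VCaP-CT, NR1H4 was near the limit of detection. It had 8.61, 3.12 and 4.27 normalized counts in rechallenged VCaP-CT, against 3.42, 1.89 and 5.01 in maintained VCaP-CT. These groups overlapped and rest on 2 to 7 counted fragments per library. The log2 fold change on rechallenge was 0.59 (95% interval -0.49 to 1.66, adjusted p = 0.496). Between the lines, NR1H4 was 6.65-fold lower in VCaP-CT than in VCaP-T in maintenance medium (adjusted p = 0.000189, edgeR), 22.1-fold lower at 0.1 nM T (adjusted p = 1.27e-06) and 4.43-fold lower at 10 nM T (adjusted p = 0.00103). The difference in response was 2.32 on the log2 scale (SE 0.624, 95% interval 1.10 to 3.54), with an adjusted p of 0.079 over all genes (edgeR).

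PPARG (ENSG00000132170.20, chr3:12287368-12434356, plus strand), the receptor of the fat cell programme, showed the largest line difference of the members. It had 8.61, 3.12 and 11.7 normalized counts in rechallenged VCaP-CT and 9.41, 10.4 and 9.02 in maintained VCaP-CT. The depleted VCaP-T libraries had 355, 498 and 349.6, and maintained VCaP-T had 245, 228 and 236. Every VCaP-T library lay more than an order of magnitude above every VCaP-CT library. PPARG was 24.3-fold lower in VCaP-CT than in VCaP-T in maintenance medium (log2 fold change -4.60, SE 0.257, adjusted p = 4.58e-08, edgeR), 41.1-fold lower at 0.1 nM T (adjusted p = 1.24e-08) and 30.0-fold lower at 10 nM T (adjusted p = 6.71e-08).

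Within VCaP-T, all depleted libraries had more PPARG than all libraries at 10 nM T. The log2 fold change on depletion was 0.76 (SE 0.18), and its adjusted p of 0.0116 missed the threshold in edgeR, while it passed with DESeq2 (0.75, adjusted p = 0.000673) and in edgeR with no filter on low counts (0.75, adjusted p = 0.00415). Without depleted replicate 2, the highest of its group, it was 0.57 with an adjusted p of 0.000313. In VCaP-CT the groups overlapped, and the log2 fold change on rechallenge was -0.31 (95% interval -1.10 to 0.49, adjusted p = 0.642). The adipocyte markers ADIPOQ, LEP and CIDEC were under 0.1 TPM in all groups, and 8 adipocyte markers summed to 0.763 to 0.870 TPM in rechallenged VCaP-CT, 1.38 to 1.72 TPM in maintained VCaP-CT, 4.07 to 6.69 TPM in depleted VCaP-T and 3.50 to 4.30 TPM in maintained VCaP-T. PLIN1 and LIPE, described below as PPARG targets, are among these markers.

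**Figure D4:**
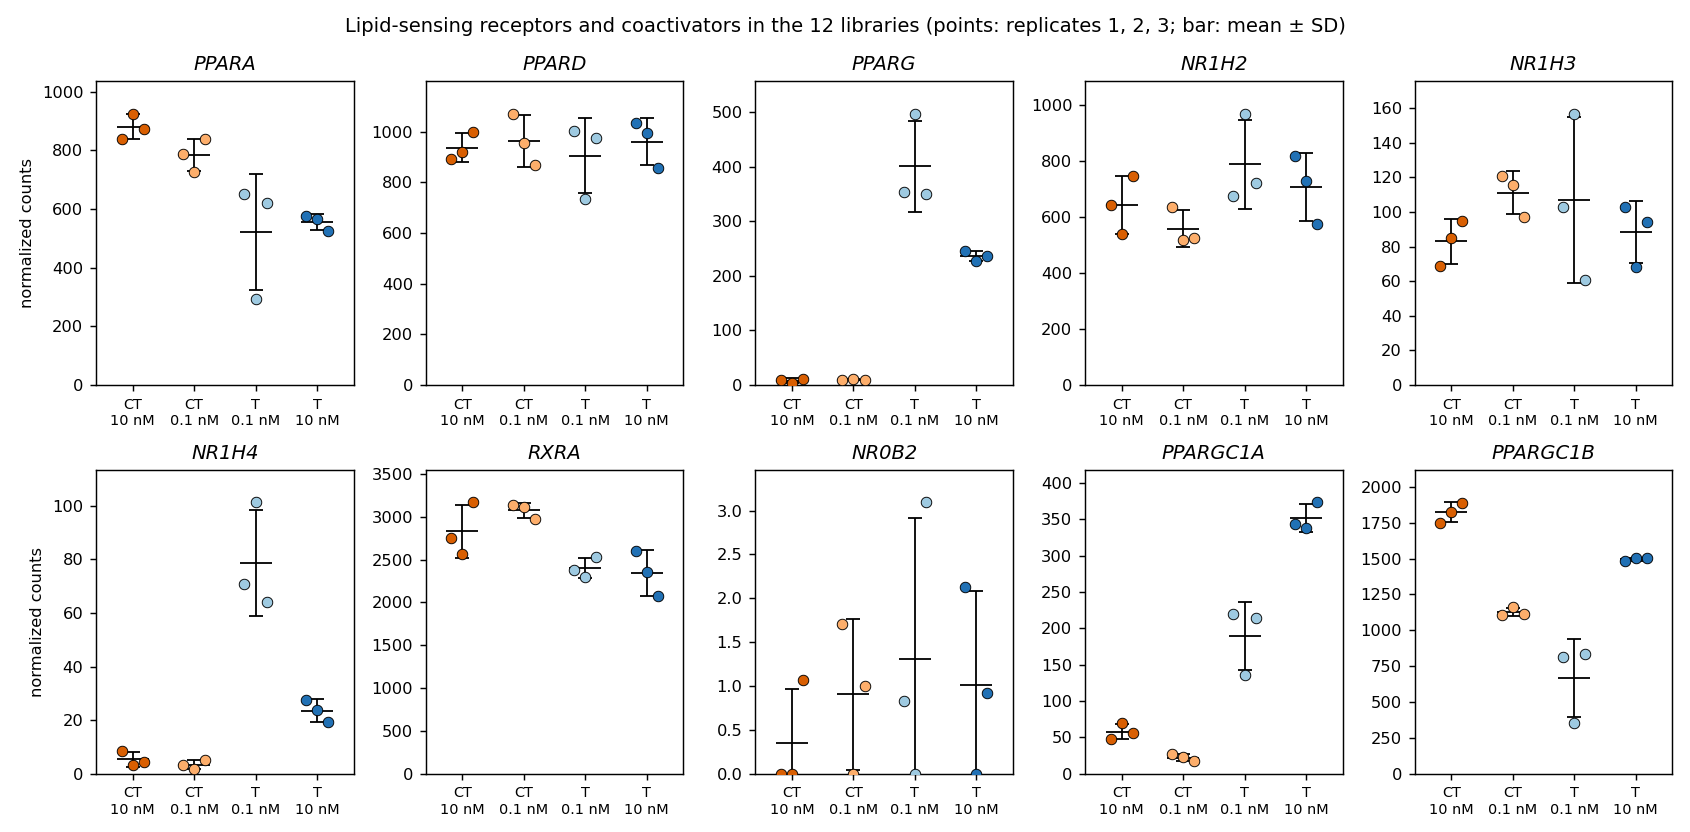
Normalized counts of the 10 members in each library (points, linear axes from 0) with the mean and SD of 3 libraries, for VCaP-CT (CT) and VCaP-T (T) at the T concentration under each group. PPARG, NR1H4 and PPARGC1A lie lower in all VCaP-CT libraries than in all VCaP-T libraries, and depleted VCaP-T replicate 2, the middle point, lies below its group in PPARA and PPARGC1B.

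PPARA, the receptor that drives fatty acid oxidation in liver, had 840.5, 926 and 875 normalized counts in rechallenged VCaP-CT and 786, 727 and 837.5 in maintained VCaP-CT. It had 650.2, 295 and 622 in depleted VCaP-T and 578, 567 and 526 in maintained VCaP-T. All VCaP-CT libraries lay above all VCaP-T libraries. The log2 fold change between the lines was 0.49 in maintenance medium (adjusted p = 0.0819), 0.58 at 0.1 nM T (adjusted p = 0.0467) and 0.66 at 10 nM T (adjusted p = 0.0292), none of which passed. The low value of 295 was that of depleted replicate 2. Without that library the differences of 0.49, 0.30 and 0.67 had adjusted p-values of 3.29e-06, 0.00182 and 9.52e-08 (edgeR), and the log2 fold change on depletion was 0.19 in place of -0.09.

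PPARD, which promotes fatty acid use in muscle, had group means between 904.6 and 964.4 normalized counts, and its 4 groups overlapped in every comparison. Its log2 fold changes lay between -0.08 and 0.09, and the 95% interval on depletion ran from -0.33 to 0.17. NR1H2, the broadly expressed LXR, had group means of 643 in rechallenged VCaP-CT, 558 in maintained VCaP-CT, 787 in depleted VCaP-T and 706 in maintained VCaP-T. Its largest log2 fold change, -0.49 between the lines at 0.1 nM T, had an adjusted p of 0.0368. NR1H3, the LXR of macrophages and liver, was lower in level, with group means of 83.0 to 111 normalized counts and log2 fold changes between -0.42 and 0.33, none past the test. Its rechallenge groups did not overlap, with 68.9, 85.2 and 94.95 in rechallenged VCaP-CT, against 121, 116 and 97.2 in maintained VCaP-CT. Of the NR1H3 exon bases, 4.17% overlapped ACP2, and fragments there were not counted.

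RXRA, the partner of all these receptors, was the most abundant member by normalized count. It had 2755, 2567 and 3169 in rechallenged VCaP-CT, and 3142, 3112 and 2976 in maintained VCaP-CT. The counts were 2374, 2297 and 2529 in depleted VCaP-T, and 2602, 2353 and 2071 in maintained VCaP-T. The maintained lines did not overlap, and RXRA was 1.31-fold higher in VCaP-CT than in VCaP-T (log2 fold change 0.39, SE 0.099, adjusted p = 0.00674, edgeR). It no longer passed without any 1 of the maintained VCaP-CT libraries (adjusted p = 0.0254, 0.0253 and 0.0167) and without replicate 2 or 3 of maintained VCaP-T (0.0234 and 0.0327). At 0.1 and 10 nM T the log2 fold changes were 0.36 and 0.27 (adjusted p = 0.0118 and 0.0472, edgeR). Without depleted replicate 2, RXRA passed in maintenance medium (0.40, adjusted p = 0.000138), at 0.1 nM T (0.33, 0.00229) and at 10 nM T (0.28, 0.0039). On depletion and rechallenge the RXRA groups overlapped, with log2 fold changes of 0.04 (95% interval -0.16 to 0.23) and -0.12 (-0.31 to 0.07).

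NR0B2, the repressor that FXR induces in liver, had 0, 0 and 1 counted fragments in rechallenged VCaP-CT and 2, 0 and 1 in maintained VCaP-CT. There were 1, 0 and 3 in depleted VCaP-T and 2, 0 and 1 in maintained VCaP-T. No group stood out, and no fold change was computed from these counts.

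Of the coactivators, PPARGC1A passed the test on depletion and on rechallenge, at very different levels in the lines, and PPARGC1B passed on depletion. PPARGC1A (ENSG00000109819.8, chr4:23755041-23904089, minus strand), the inducible coactivator of mitochondrial genes, had 220.3, 136 and 213.5 normalized counts in depleted VCaP-T, against 343, 339 and 373 in maintained VCaP-T. All depleted libraries lay below all maintained ones. PPARGC1A fell on depletion by 0.88 on the log2 scale (SE 0.183, adjusted p = 0.00558, edgeR), short of the fold threshold for a call. In VCaP-CT it had 48.0, 69.6 and 56.5 normalized counts after rechallenge, against 26.5, 22.7 and 17.0 in maintained cells. The groups again did not overlap, and PPARGC1A rose 2.61-fold on rechallenge (log2 fold change 1.39, SE 0.249, adjusted p = 0.00162).

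The level of PPARGC1A stayed far apart between the lines at either T concentration. It was 15.7-fold lower in VCaP-CT than in VCaP-T in maintenance medium (log2 fold change -3.98, SE 0.227, adjusted p = 5.58e-08, edgeR), 8.54-fold lower at 0.1 nM T (adjusted p = 6.11e-07) and 6.02-fold lower at 10 nM T (adjusted p = 1.32e-06). The order of the group means was maintained VCaP-T (352), depleted VCaP-T (189.9), rechallenged VCaP-CT (58.1) and maintained VCaP-CT (22.1), with no overlap between neighbours. The difference in response was 0.50 on the log2 scale (95% interval -0.10 to 1.11, adjusted p = 0.452, edgeR).

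PPARGC1B (ENSG00000155846.16, chr5:149730298-149855022, plus strand), the related coactivator, was the main PGC1 transcript of both lines. It had 813, 354 and 837 normalized counts in depleted VCaP-T, against 1484, 1504 and 1501 in maintained VCaP-T. The groups did not overlap, and PPARGC1B fell by 1.16 on the log2 scale (SE 0.228, adjusted p = 0.00413, edgeR), a 2.23-fold difference. Without depleted replicate 2 it fell by 0.86 (adjusted p = 1.36e-09) and PPARGC1A by 0.70 (adjusted p = 5.89e-05), so that NR1H4 was the 1 member still called. Leaving out any 1 library of maintained VCaP-T raised the adjusted p on depletion to between 0.0149 and 0.0166 for PPARGC1B and between 0.0194 and 0.0273 for PPARGC1A, and the fit of the 6 libraries alone gave 0.0655 and 0.0407.

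In VCaP-CT, PPARGC1B had 1750.0, 1824 and 1890.0 normalized counts after rechallenge, against 1105, 1161 and 1115 in maintained cells. The groups were well apart, with a log2 fold change of 0.69 on rechallenge (SE 0.224) and an adjusted p of 0.0419. The spread in that fit was shared with the depleted VCaP-T group, and without depleted replicate 2 the difference of 0.70 had an adjusted p of 1.30e-09. Both groups at 10 nM T lay above both groups at 0.1 nM T. The order of the PPARGC1B means was rechallenged VCaP-CT (1822), maintained VCaP-T (1496), maintained VCaP-CT (1127) and depleted VCaP-T (668), none overlapping the next. Between the lines the log2 fold change was -0.41 in maintenance medium (adjusted p = 0.162), 0.75 at 0.1 nM T (0.0191) and 0.28 at 10 nM T (0.349). Without depleted replicate 2 these were -0.41, 0.45 and 0.29, with adjusted p-values of 7.30e-07, 1.86e-06 and 4.87e-05.

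Genes on which these regulators are known to act were read from lists, each as the number past edgeR's test in each direction and its median log2 fold change, beside that of all genes given above. List counts without depleted replicate 2 have a larger background: 5320 of 19649 genes passed on depletion and 7184 on rechallenge. Of the 14 LXR targets tested, 3 fell on depletion (LPL, SCD and FASN), while the list's median was 0.26. On rechallenge 3 rose (SCD, FASN and SREBF1), 1 fell (PLTP), and the median was 0.07. Without any 1 library of maintained VCaP-CT, the rechallenge counts were 1 higher and 0 lower. Those that fell on depletion make, desaturate or release fatty acids. The cholesterol exporters ABCA1 and ABCG1 did not pass on depletion (log2 fold changes 1.30 and 0.40, adjusted p = 0.0107 and 0.0372, edgeR). ABCA1 ran from 79.0 to 232 normalized counts in depleted VCaP-T, and from 60.5 to 86.0 in maintained VCaP-T. Without depleted replicate 2, 3 LXR targets were higher and 4 lower on depletion. DESeq2 gave 2 higher and 4 lower, with 3112 of 19162 genes past in all. SCD, which desaturates fatty acids, fell on depletion to 28400 ± 5689 normalized counts in depleted VCaP-T, against 46820 ± 1063 in maintained VCaP-T (SD, n = 3 each, adjusted p = 0.00146, edgeR). It rose 2.25-fold on rechallenge, with 70300 ± 601.5 in rechallenged VCaP-CT, against 31300 ± 224 in maintained VCaP-CT (adjusted p = 2.92e-05). FASN, the fatty acid synthase, fell 2.20-fold on depletion (adjusted p = 0.00245) and rose by 0.97 on the log2 scale on rechallenge (adjusted p = 0.00444). Between the lines in maintenance medium 3 of the 14 were higher in VCaP-CT (ABCG1, ABCA1 and MYLIP) and 2 lower (SREBF1 and SCD), with a median of -0.05.

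Of the 18 fatty acid oxidation genes known as PPAR targets and tested, 3 rose on depletion (PEX11A, ACAA2 and HADHB; median 0.11). On rechallenge 3 rose (ACSL1, SLC25A20 and ACAA1) and 2 fell (EHHADH and PEX11A; median 0.10). PEX11A, which acts in the division of peroxisomes, had 1715 ± 229 normalized counts in depleted VCaP-T, against 908 ± 18.7 in maintained VCaP-T, and rose by 0.92 on the log2 scale on depletion (adjusted p = 3.89e-05, edgeR). It fell on rechallenge by 0.40, with 1208 ± 28.2 in rechallenged VCaP-CT, against 1590.0 ± 69.5 in maintained VCaP-CT (adjusted p = 0.0075). The acyl-CoA synthetase ACSL1 rose by 0.80 on the log2 scale (adjusted p = 5.12e-05) and the carnitine carrier SLC25A20 by 0.87 (adjusted p = 0.00076) on rechallenge, with log2 fold changes of -0.08 and -0.21 on depletion (adjusted p = 0.575 and 0.271). In maintenance medium 3 were lower in VCaP-CT than in VCaP-T (SLC25A20, PLIN2 and HADHB), PEX11A was higher, and the median was -0.10.

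Of 8 PPARG targets of fat cells tested, 1 rose on depletion (PLIN1, a coat protein of lipid droplets) and 1 fell (LPL, the lipoprotein lipase; median 0.14), and 1 rose on rechallenge (ACSL1; median -0.45). PLIN1 had 88.1 ± 9.94 normalized counts in depleted VCaP-T, against 38.3 ± 1.77 in maintained VCaP-T, a 2.31-fold rise (adjusted p = 0.0015, edgeR). Of the 8, 1 differed between the lines in maintenance medium: LIPE, the hormone-sensitive lipase, was 9.14-fold lower in VCaP-CT (log2 fold change -3.19, adjusted p = 3.80e-05). The list median there was -0.08, and 15.7% of all genes passed as lower. At 0.1 nM T in both lines, LIPE and PLIN1 were lower in VCaP-CT and LPL higher, with a median of -0.54 (16.4% of all genes lower). At 10 nM T, LIPE was lower and ACSL1 higher, with a median of -0.44 (13.2% of all genes lower). At an unadjusted p under 0.05, 4 of the 8 were lower at each of these concentrations.

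Some of the FXR targets and bile acid enzymes changed with T. Of 5 FXR targets tested, 1 fell on depletion (UGT2B4; median -0.40). On rechallenge 3 rose (UGT2B4, SLC51A and SDC1) and 1 fell (KNG1; median 0.43), with 7.07% of all genes higher and 7.19% lower. Without any 1 library of maintained VCaP-CT, 1 FXR target was higher past the test. UGT2B4, which conjugates bile acids and steroids, rose 3.29-fold on rechallenge, with 2288 ± 207 normalized counts in rechallenged VCaP-CT, against 694.5 ± 30.9 in maintained VCaP-CT (adjusted p = 7.50e-08, edgeR). On depletion it fell by 0.44 on the log2 scale (adjusted p = 0.00295), while NR1H4 rose. At an unadjusted p under 0.05 (edgeR), 1 of the 5 FXR targets was higher and 2 were lower on depletion. UGT2B4 still passed on depletion in 1 of 6 fits that each left out a library, the one without depleted replicate 2, and did not pass with only the 6 VCaP-T libraries. Of 6 enzymes of bile acid and oxysterol synthesis, AMACR fell on depletion (median 0.02), and AMACR and ACOX2 rose on rechallenge (median 0.15). AMACR, a racemase of branched fatty acids and bile acid intermediates, had 1104 ± 92.6 normalized counts in depleted VCaP-T, against 3809 ± 89.8 in maintained VCaP-T (3.45-fold lower, adjusted p = 1.29e-07). It had 18910 ± 654 in rechallenged VCaP-CT, against 2466 ± 147 in maintained VCaP-CT (7.67-fold higher, adjusted p = 1.81e-09).

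How many of the PGC1 partners and mitochondrial targets passed the test depended on the fit. Of 17 tested in the edgeR fit of all 12 libraries, SIRT3 rose and IDH3A fell on depletion (median -0.13). In that fit GABPB1 rose and SIRT3 fell on rechallenge (median 0.21). SIRT3, a mitochondrial deacetylase, had 477 ± 26.1 normalized counts in depleted VCaP-T, against 334 ± 10.0 in maintained VCaP-T (log2 fold change 0.51, adjusted p = 0.000937, edgeR), and moved by -0.52 on rechallenge (adjusted p = 0.000541), opposite in sign to the coactivators. In maintenance medium SIRT3, GABPA and PERM1 were higher in VCaP-CT than in VCaP-T, and ESRRG, an orphan receptor coactivated by PGC1 proteins, was 3.31-fold lower (adjusted p = 1.08e-05). Without depleted replicate 2 the depletion counts were 2 higher and 8 lower, and the rechallenge counts 7 higher and 2 lower. There 5320 and 7184 of 19649 genes passed in all. DESeq2 gave 2 higher and 6 lower on depletion, and 3 higher and 1 lower on rechallenge. With it 3112 and 3705 of 19162 genes passed in all. With only the 6 VCaP-CT libraries 7 were higher and 1 lower on rechallenge, where 6981 of 17793 genes passed. Of 16 other coregulators of nuclear receptors, edgeR passed 0 on depletion and 0 on rechallenge, DESeq2 passed 0 in either, and 0 and 3 had an unadjusted p under 0.05 (medians -0.22 and 0.02). Without depleted replicate 2, 2 coregulators were higher and 1 lower on depletion, and 4 higher and 2 lower on rechallenge, and with only the 6 VCaP-CT libraries 3 were higher and 2 lower on rechallenge. In maintenance medium HDAC3 and NCOA3 were higher in VCaP-CT.

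**Figure D5:**
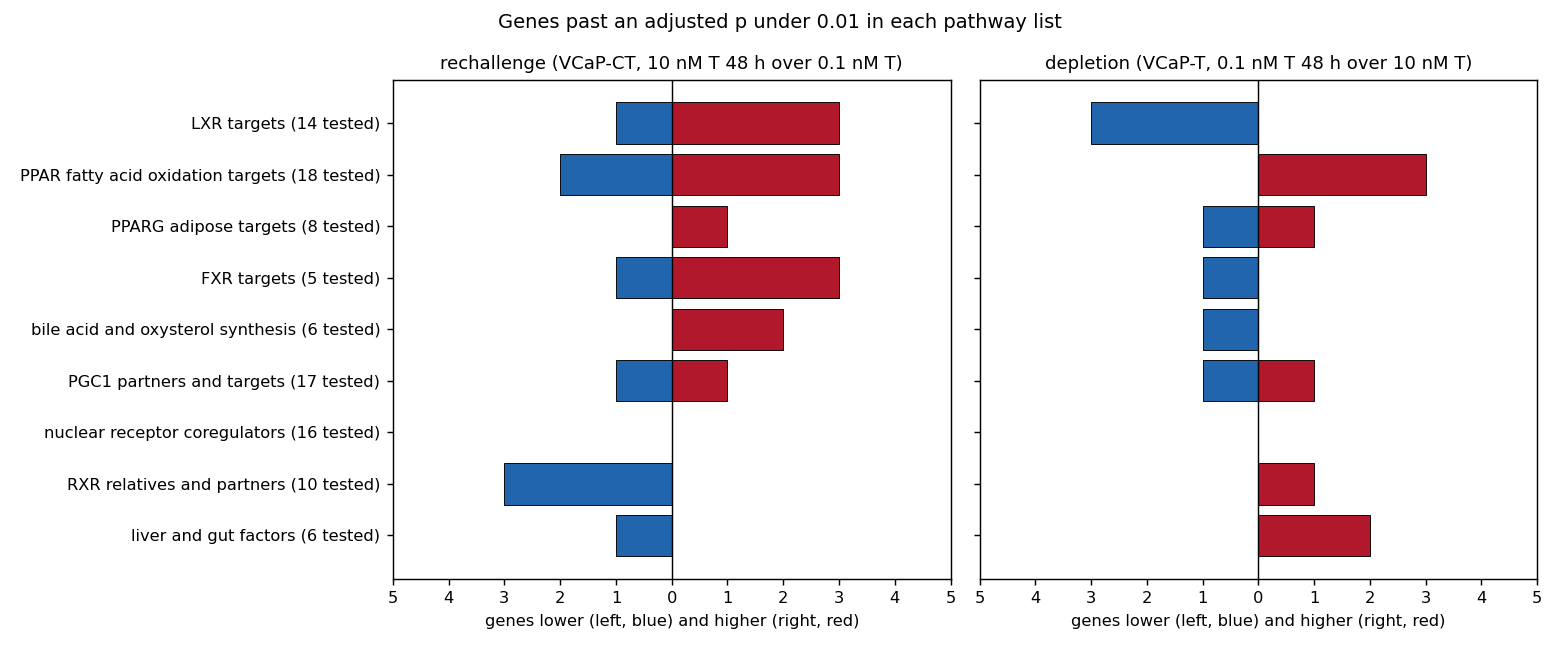
Number of genes of each list past the test (adjusted p under 0.01, edgeR) that were higher (right, red) or lower (left, blue) on rechallenge and on depletion, with the number tested beside the name. In both panels the counts are at most 3 higher and 3 lower in a list.

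Of 10 other receptors and partners of RXR, NR4A2 alone passed on depletion, where it rose 9.42-fold (adjusted p = 6.72e-07, edgeR), and on rechallenge NR4A2, THRB and RARA fell (medians 0.06 and -0.60). The counts without depleted replicate 2 were 4 higher and 1 lower on depletion, and 3 higher and 5 lower on rechallenge. In that fit 5320 and 7184 of 19649 genes passed in all. NR4A2, an orphan receptor that can pair with RXR, had 314 ± 33.1 normalized counts in depleted VCaP-T, against 33.6 ± 11.6 in maintained VCaP-T. It had 31.0 ± 2.00 in rechallenged VCaP-CT, against 384 ± 13.8 in maintained VCaP-CT, a 12.4-fold fall (adjusted p = 1.23e-07). Among 6 transcription factors of liver and gut, GATA6 and NR5A2 rose on depletion, and NR5A2 fell on rechallenge (medians 0.64 and -0.80). The depletion count was 0 without maintained VCaP-T replicate 1 or 3 and 3 without depleted replicate 2. The rechallenge count was 3 without depleted replicate 2, and NR5A2 passed on rechallenge in 1 of the 6 fits that each left out a VCaP-CT library, the one without maintained replicate 2. In maintenance medium 2 were higher in VCaP-CT (CDX2 and FOXA1) and 3 lower (HNF4G, GATA4 and NR5A2), with a median of -0.73. HNF4G had 16.3 ± 2.16 normalized counts in maintained VCaP-CT, against 389 ± 23.9 in maintained VCaP-T (adjusted p = 1.54e-08, edgeR). Of 10 hepatocyte markers, 3 (ALB, TTR and APOH) reached 1 TPM, and the sum was 21.4 to 23.6 TPM in rechallenged VCaP-CT, 62.7 to 66.95 TPM in maintained VCaP-CT, 49.6 to 55.4 TPM in depleted VCaP-T and 21.7 to 23.2 TPM in maintained VCaP-T. ALB and TTR were highest in maintained VCaP-CT (means of 39.6 and 23.6 TPM). APOH was lowest there (1.56 TPM, against 10.9 TPM in maintained VCaP-T). The 9 enterocyte markers summed to 24.8 to 29.5 TPM in rechallenged VCaP-CT, 73.4 to 74.9 TPM in maintained VCaP-CT, 27.4 to 58.3 TPM in depleted VCaP-T and 25.04 to 25.9 TPM in maintained VCaP-T. Most of that sum was SI alone, with means of 24.7, 71.2, 45.7 and 23.7 TPM in that order of groups, while APOA4, LCT and ALPI were under 0.1 TPM in all. The 6 fibroblast markers summed to 1.596 to 2.14 TPM, 21.8 to 24.9 TPM, 8.74 to 11.6 TPM and 2.14 to 2.47 TPM in that order of groups, with DCN, COL1A2, COL3A1 and PDGFRA under 0.1 TPM in all. LUM had a mean of 23.0 TPM in maintained VCaP-CT, against 0.561 TPM in maintained VCaP-T. COL1A1 went the other way (0.389 against 1.70 TPM). The part of these markers in the liver and gut list and in NR1H4 was not tested.

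The counts of the lists depended on the libraries in the fit. With only the 6 VCaP-T libraries, 0 genes of the LXR, PPAR oxidation, PPARG, FXR, PGC1 and liver and gut lists passed on depletion, where 283 genes passed in all. With only the 6 VCaP-CT libraries, where 6981 genes passed on rechallenge, LXR targets were 4 higher and 3 lower, PPAR oxidation genes 6 higher and 3 lower, and RXR relatives 3 higher and 5 lower. With the replicate number as a block, the rechallenge counts were 1 higher for FXR targets, 1 lower for RXR relatives, 2 higher and 0 lower for LXR targets, and 0 for the liver and gut factors. Without depleted replicate 2, LXR targets on depletion were 3 higher and 4 lower, where 5320 of 19649 genes passed in all. PPAR oxidation genes on rechallenge were then 6 higher and 3 lower, where 7184 passed. Without any 1 library of maintained VCaP-T, 1 PPAR oxidation gene was higher past the test on depletion.

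The genes whose log2 CPM followed each T-responsive member most closely over the 12 libraries were taken as a description, since all share the same groups. Depleted replicate 2 was among the 12, and r was not computed without it. For NR1H4 these were CWH43, SLC44A3 and NET1 (Pearson r 0.982, 0.981 and 0.978). All 3 rose on depletion, by 0.55, 0.58 and 0.53 on the log2 scale, and were lower in VCaP-CT than in VCaP-T in maintenance medium by 0.92, 0.60 and 0.82, less than NR1H4 in either comparison. For PPARGC1A they were IKZF1, SGK3 and TRAF3IP2 (r 0.992, 0.992 and 0.991). IKZF1, a lymphoid zinc finger factor, was 29.9-fold lower in VCaP-CT than in VCaP-T in maintenance medium (adjusted p = 1.24e-09, edgeR) and rose 2.62-fold on rechallenge (adjusted p = 0.000167). For PPARGC1B they were MFN2, a mitochondrial fusion protein, URB2 and NUP98 (r 0.991, 0.989 and 0.988). In depleted VCaP-T they ran from 3220 to 4645, 417 to 759 and 3528 to 5683 normalized counts in that order. Of these genes, URB2 passed the test on depletion (log2 fold change -0.95, adjusted p = 0.00194).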

How the data were processed

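Poly(A) RNA of 12 libraries was counted by the authors: as deposited, the values are whole-number counts of fragments per gene, from stranded TruSeq libraries aligned to GRCh38 with STAR 2.5.4b and counted over Gencode exons with featureCounts 1.6.2, without use of the strand and without fragments that hit several genes or places. Antisense transcripts therefore cannot be told from their partner. The authors' table of DESeq2-normalized values was not used here.

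The counts were analysed in R 4.3.3 with edgeR 4.0.16, using its quasi-likelihood test with TMM scaling, its default filter on low counts, 1 model of the 4 groups over 19162 genes and Benjamini-Hochberg adjustment. The pipeline was tested on simulated data. DESeq2 1.42.0 and the settings below were alternatives, and fits without depleted replicate 2 for comparisons that do not hold it were added after seeing the data. TPM used the exon length in the count files, and log2 CPM a prior count of 2. At 30.2 to 40.8 M fragments, a gene under 10 counts is measured with a large counting error.

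The 10 members were all named. For members called on depletion or rechallenge, the 3 genes most correlated over the libraries were named, and from each list up to 4 genes with the smallest p past the test on depletion and on rechallenge. Others, such as ABCA1, ABCG1 and genes that differed between the lines, were named after their values were seen or to complete a count. Members and lists were chosen with earlier results of these data known. The listed gene SOD2 was not matched by symbol, and a few listed genes are not reported here and were left out of the lists' counts.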

Additional observations from a re-analysis of the deposited data

Results flagged for a closer look

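For 6 genes named beside the regulators, the difference in response passed its own test (edgeR, the log2 change with 10 nM T in VCaP-CT minus that in VCaP-T). It sets a 48 h addition of T in VCaP-CT against a 48 h withdrawal in VCaP-T, so line and direction cannot be told apart. Among the target lists, UGT2B4 differed by 1.28 (adjusted p = 0.000178), AMACR by 1.15 (adjusted p = 0.000311) and ACSL1 by 0.73 (adjusted p = 0.00982). Among the genes that followed NR1H4, SLC44A3 differed by 0.80 (adjusted p = 0.00576), CWH43 by 0.69 (adjusted p = 0.00343) and NET1 by 0.64 (adjusted p = 0.00319). HADHB, a subunit of the mitochondrial trifunctional protein, was higher in every sample after either change of T, a difference of 0.58 whose own adjusted p was 0.066. Across all genes, 0.965% passed this test.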

How the results depend on the processing

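Across the alternatives, the line differences of PPARG, NR1H4 and PPARGC1A kept their direction wherever the genes were tested. At an adjusted p of 0.05, 2 members passed on rechallenge, 7 between the lines at 0.1 nM T and 5 at 10 nM T. Of all 19162 genes, 4627, 8209 and 7217 passed in these. On depletion 4 passed at an adjusted p of 0.05, with no filter and with DESeq2, where PPARG was added, against 3. All genes past were 4149 of 19162, 2091 of 37997 and 3112 of 19162 in that order. With no filter 2 passed on rechallenge and 5 between the lines at 0.1 nM T (2654 and 5965 of 37997 genes). With at least 10 counts in all libraries PPARG and NR1H4 were not tested: 1 member was called on depletion and 1 in each comparison of the lines. Members past the test were 2, 1 and 1 in maintenance medium, at 0.1 nM T and at 10 nM T (4931, 4627 and 4006 of 15156 genes). DESeq2 passed 5 at 0.1 nM T (6671 of 19162 genes). With only the 6 libraries of the comparison, 0 members passed or were called on depletion, 2 passed on rechallenge and 5 between the lines at 10 nM T. All genes past were 283 of 18293, 6981 of 17793 and 8334 of 17972 there. Leaving out single libraries gave 1 to 4 past and 1 to 2 called on depletion, 1 to 2 past on rechallenge, and 3 to 6 in each comparison of the lines. All genes past ran from 906 to 5320 on depletion and from 1674 to 7184 on rechallenge. Between the lines they ran from 4359 to 10497 in maintenance medium, 4178 to 9348 at 0.1 nM T and 3438 to 9415 at 10 nM T. The cause was not tested beyond what the fewer genes or libraries set.

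Members near 0 changed sign. PPARD between the lines in maintenance medium was 0.007, and -0.00040 with RLE scaling, -0.010 with at least 10 counts, -0.00021 with DESeq2 and -0.0097 with 6 libraries. With single libraries left out, PPARA ran from -0.27 to 0.19 on depletion and -0.10 to 0.36 in the difference in response. PPARD ran from -0.16 to 0.044 on depletion, -0.11 to 0.038 on rechallenge, -0.070 to 0.078, -0.032 to 0.17 and -0.11 to 0.020 between the lines in maintenance medium, at 0.1 nM T and at 10 nM T, and -0.20 to 0.0024 in the difference. NR1H2 ran from -0.018 to 0.27 on depletion, and RXRA from -0.042 to 0.12. NR1H3 ran from -0.087 to 0.55 on depletion, -0.21 to 0.42 at 0.1 nM T, -0.24 to 0.031 at 10 nM T and -0.50 to 0.13 in the difference. PPARG ran from -0.75 to 0.093 on rechallenge.

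With the replicate number as a block, 2, 1, 3, 3 and 3 members passed in the 5 comparisons and 0 in the difference in response. Of all 19162 genes, 1321, 2121, 5163, 4939 and 4192 passed in the comparisons and 83 in the difference. PPARGC1A on depletion (-0.89, adjusted p = 0.0144) and RXRA in maintenance medium (0.39, adjusted p = 0.014) no longer passed. Same-numbered libraries correlated between -0.155 and 0.055 in their deviations from group means. Differently numbered pairs were not set beside them, so whether the numbers pair the samples was not tested. Counts over all genes moved too. On depletion 1911 genes passed, against 3112 with DESeq2, 283 with 6 libraries, 4149 at 0.05 and 906 to 5320 with a library left out. On rechallenge 2732 passed, against 6981 with 6 libraries, 4627 at 0.05 and 1674 to 7184. For the difference in response 185 passed, against 617 with DESeq2, 83 with the block, 484 at 0.05 and 69 to 1451. With 6 libraries the line counts were 10491, 2932 and 8334, against 5857, 5647 and 4828, and left-out libraries gave 4359 to 10497, 4178 to 9348 and 3438 to 9415.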
